A study of Mus musculus with 6 samples.

Results

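*Nf1* and the genes of 7 other Ras GTPase-activating proteins (Ras GAPs), *Rasa1*, *Rasa2*, *Rasa3*, *Rasa4*, *Rasal1*, *Rasal2* and *Dab2ip*, were read from bulk RNA-seq of mouse peripheral nerve tumor tissue. They were taken by symbol, 8 of the 24062 genes listed in the files, and 7 of them were among the 15652 genes that passed a filter on low counts. The study crossed floxed *Runx1* and *Runx3* into a neurofibroma mouse to ask what these transcription factors do in the tumor. There were 3 libraries from *Nf1fl/fl;DhhCre* mice and 3 from mice also floxed for *Runx1* and *Runx3*, called double knockout here. Both groups carried Cre under the *Dhh* promoter on the background given as C57BL/6-I129. The labels give the second genotype as *Rx1flfl;Rx3fl/fl;DhhCre*, without *Nf1fl/fl*, whereas the methods of the study include it. The labels call the tissue dorsal root ganglion (DRG) in the first group and neurofibroma tumor in the second, and the methods call it DRG/tumors in both. Tissue as labelled and genotype therefore cannot be told apart. The ages of the mice in these libraries are not given in the sources used here. *Dhh* drives Cre in Schwann cells (SCs) and their precursors, and cells of the tissue outside that lineage keep intact alleles.

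Ras proteins signal while bound to GTP and stop when the GTP is cut to GDP. Ras GAPs speed this cut and so switch Ras off, against the exchange factors that load Ras with GTP. Neurofibromin, the product of *Nf1*, is the Ras GAP lost in neurofibromatosis type 1, and SCs without it are the cells from which neurofibromas grow. The other Ras GAPs differ in what brings them to the membrane. *Rasa1* encodes p120 RasGAP, which binds activated receptors through SH2 domains. *Rasa2*, *Rasa3*, *Rasa4* and *Rasal1* encode the GAP1 family, which binds membrane lipids, in some members in response to calcium. *Rasal2* and *Dab2ip* encode Ras GAPs of a further family, with PH and C2 domains before the GAP domain.

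What these proteins share is the GAP domain. A short stretch of its coding sequence is shown because it holds a signature of the family, the residues phenylalanine, leucine and arginine, then 3 residues that vary, then proline and alanine. The 24 coding bases are written 5′ to 3′ on the gene's strand, with the codons of the shared residues in capitals, from the longest coding transcript of each gene in GENCODE M21 (GRCm38). Each lies within 1 exon.
*Nf1*, chr11:79468771-79468794, plus strand: TTTCTCAGAttcatcaatCCTGCC
*Rasa1*, chr13:85221505-85221528, minus strand: TTTCTTCGCcttatctgcCCTGCT
*Rasa3*, chr8:13583792-13583815, minus strand: TTCCTCAGGttcttcgccCCTGCC
*Rasal1*, chr5:120670309-120670332, plus strand: TTTCTGCGGttctttgcgCCTGCC
*Rasal2*, chr1:157163813-157163836, minus strand: TTTCTCCGTtttctttgcCCAGCC
*Dab2ip*, chr2:35715372-35715395, plus strand: TTCCTTCGCttcctgtgcCCTGCC
The *Rasa3* stretch had the same base as *Nf1* at 18 of the 24 positions, *Rasal1* at 16, and *Rasa1*, *Rasal2* and *Dab2ip* at 15 each. The translated transcripts of *Rasa2* and *Rasa4* held no match to these exact residues, which says only that the letters searched are not there.

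Levels are reads scaled to a common library total (CPM) with factors for library composition (TMM), with n = 3 libraries in each group. Groups were compared with limma-voom, and its p-values were adjusted over all genes tested by the Benjamini-Hochberg method. Library totals ran from 12439296 to 16682194 counts. The genes that the design targets came first. In order of the replicates, *Runx1* read 131, 141 and 172 CPM in *Nf1fl/fl;DhhCre*, against 84.0, 78.9 and 185 CPM for those labelled double knockout. Double knockout replicate 3 had the highest *Runx1* total of the 6, but a total over all exons cannot decide whether its label holds. *Runx3* was at 19.9, 15.1 and 29.9 CPM against 13.5, 10.3 and 12.1 CPM, and its groups did not overlap. Neither gene passed the test, with a log2 fold change of -0.44 for *Runx1* (limma-voom adjusted p = 0.370) and of -0.79 for *Runx3* (limma-voom adjusted p = 0.104). By its label, double knockout replicate 3 was also sequenced in another run than the other 5 libraries. However, the mouse numbers of double knockout replicates 2 and 3 are exchanged between their titles and their deposited data. Either may thus be the one sequenced apart. The titles and deposited data of *Nf1fl/fl;DhhCre* replicates 1 and 2 also carry different mouse numbers, of the same genotype. The counts cover all exons of a gene, so a total for *Nf1*, *Runx1* or *Runx3* says nothing on whether its floxed exons were deleted. P-values measure the spread between these libraries, each of which carries a separate mouse number.

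Markers of several cell types differed between the groups, and in bulk tissue fewer cells of a type and less RNA per cell cannot be told apart. All 9 sensory neuron markers rose in the double knockout, from a summed level of 1192 to 2329 CPM to one of 5829 to 13207 CPM. Of 8 macrophage markers 7 fell, with the sum of all 8 at 599 to 1113 CPM against 127 to 292 CPM. All 5 fibroblast markers fell, from 7789 to 8562 CPM to 2825 to 4561 CPM. Of 7 markers of myelinating SCs 5 rose, with the sum of all 7 at 613 to 701 CPM against 1344 to 1770 CPM. Of 7 general SC markers 1, *S100b*, rose and the other 6 did not pass the test, with sums of 1408 to 1646 CPM and 1385 to 1902 CPM. Of the satellite glia markers *Fabp7* rose and *Kcnj10* fell, while none of 3 T cell, 4 mast cell, 4 endothelial and 5 skeletal muscle markers passed. The muscle markers summed to 1412 and 10317 CPM in replicate 2 of each group and to 3.91 to 53.9 CPM in the other 4 libraries. No marker was at 0 in every library.

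The double knockout libraries held more *Rasal2*, less *Rasa3* and levels of *Nf1* and *Rasa1* that overlapped those of the *Nf1fl/fl;DhhCre* libraries. Of the 7 genes tested, 2 passed an adjusted p of 0.05, *Rasal2* upward and *Rasa3* downward, in a comparison in which 19.3% of all genes tested passed, 11.1% upward and 8.22% downward. Over 7 genes a count of 2 is near this background. None also changed by more than 2-fold, the further condition for a differentially expressed gene (DEG), against 13.4% of all genes. edgeR's quasi-likelihood test and DESeq2 likewise called 0 of the 7 as DEGs, and 4 of the 7 had an unadjusted p below 0.05 in limma-voom, against 35.2% of all genes. The groups did not overlap for 5 of the 7, against 42.3% of all genes, 2 of them higher (21.8% of all genes) and 3 lower (20.5%) in the double knockout. The median log2 fold change was -0.06 over the 7 and 0.02 over all genes tested. The plot of levels by library shows every value.

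**Figure D1:**
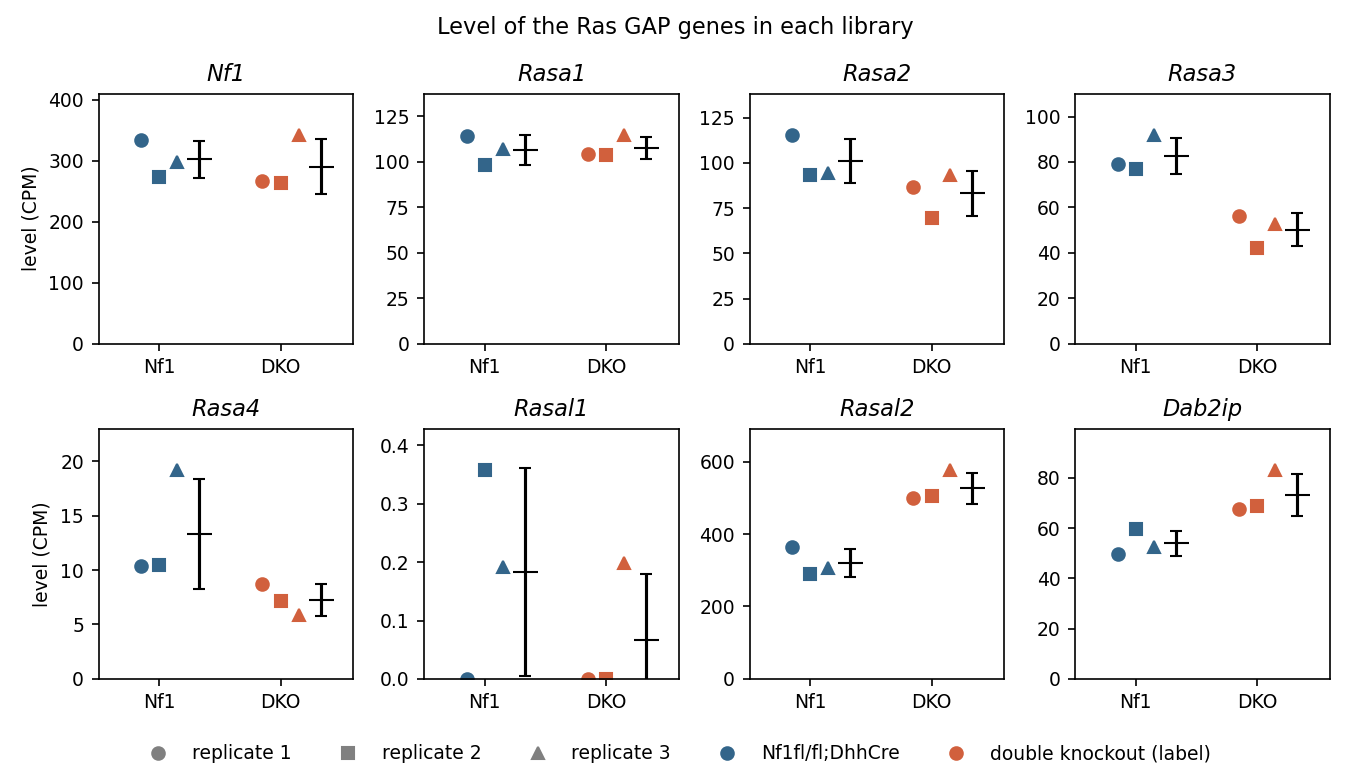
Level of each of the 8 Ras GAP genes in CPM (y axis, from 0, a scale of its own for each gene) in the 3 *Nf1fl/fl;DhhCre* libraries (blue, Nf1) and the 3 libraries labelled double knockout (orange, DKO). Symbols mark the replicate and bars the mean and SD. *Rasal2* lies at 291 to 364 CPM against 500 to 576 CPM and *Rasa3* at 77.0 to 91.8 CPM against 42.2 to 56.0 CPM, while the groups of *Nf1* and *Rasa1* overlap.

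*Nf1* lies on the plus strand of chromosome 11 (chr11:79339693-79581612, GRCm38), and its exons share no base with another gene's. Its level was 334, 273 and 298 CPM in *Nf1fl/fl;DhhCre* and 266, 263 and 342 CPM in the double knockout. The highest of the 6 values was that of double knockout replicate 3 and the lowest that of replicate 2 of the same group, so that one group's range enclosed the other's. The means were 302 ± 30.8 CPM and 290 ± 44.5 CPM (SD, n = 3 each). The log2 fold change was -0.06 (SE 0.15, 95% confidence interval -0.40 to 0.28, limma-voom adjusted p = 0.809). The sign turned with the libraries used, from -0.18 without double knockout replicate 3 to 0.04 without *Nf1fl/fl;DhhCre* replicate 1.

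*Nf1* was also set against the SC markers of the same library, since Cre acts in the SC lineage. On the log2 CPM scale it stood 1.12, 0.95 and 1.06 above the mean of the 7 general SC genes in the *Nf1fl/fl;DhhCre* libraries. In the double knockout it stood 0.56, 0.98 and 1.10 above them. Replicate 1 of the double knockout lay below the other 5 libraries. The groups differed by -0.16 (1.04 ± 0.08 against 0.88 ± 0.29, SD, n = 3 each, exact two-sided permutation p = 0.6, where 3 against 3 cannot go below 0.1). Without that replicate the difference was -0.0043. Its sign also turned on 1 marker of the list: without *S100b*, which rose, *Nf1* stood 1.04, 0.93 and 1.03 above the other 6 genes against 0.70, 1.19 and 1.32, a difference of 0.071 (exact two-sided permutation p = 0.8).

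*Rasa1* (chr13:85214780-85289130, minus strand) shares 12 exon bases with the antisense gene *Ccnh*. It was at 114, 98.1 and 107 CPM in *Nf1fl/fl;DhhCre* and at 104, 104 and 114 CPM in the double knockout. All 6 libraries thus lay within 98.1 to 114 CPM. The log2 fold change was 0.02 (SE 0.12, interval -0.27 to 0.30, limma-voom adjusted p = 0.938), and it had the other sign with scaling by library size only (-0.06). The profile of *Rasa1* was the nearest among the members to that of *Nf1*, at a Euclidean distance of 0.22 between log2 CPM centred on the mean of the 6 libraries.

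Of the 3 GAP1 family members tested, *Rasa3* fell and *Rasa2* and *Rasa4* did not pass the test. The groups of each did not overlap, lower in the double knockout, as for 20.5% of all genes. *Rasa3* (chr8:13566948-13677603, minus strand) encodes a GAP that acts on both Ras and Rap1. It was at 79.1, 77.0 and 91.8 CPM in *Nf1fl/fl;DhhCre* and at 56.0, 42.2 and 52.5 CPM in the double knockout. The gap between the lowest value of the first group and the highest of the second was wider than the range within either group. *Rasa3* fell 1.65-fold, from 82.7 ± 7.98 to 50.3 ± 7.20 CPM (SD, n = 3 each), a log2 fold change of -0.72 (SE 0.16, interval -1.09 to -0.36, limma-voom adjusted p = 0.0227). Leaving out *Nf1fl/fl;DhhCre* replicate 1 or 3 or double knockout replicate 2 ended the call, at limma-voom adjusted p of 0.0687, 0.0681 and 0.0671 and log2 fold changes of -0.72, -0.60 and -0.60. Macrophage and fibroblast markers fell in the same libraries, as given above, and their part in the *Rasa3* result was not tested.

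*Rasa2* (chr9:96539300-96631617, minus strand) was at 115, 93.6 and 94.3 CPM against 86.6, 69.6 and 93.2 CPM. The groups were barely apart, between *Nf1fl/fl;DhhCre* replicate 2 and double knockout replicate 3. Its log2 fold change was -0.28 (SE 0.16, interval -0.65 to 0.09, limma-voom adjusted p = 0.255). *Rasa4* (chr5:136083916-136111860, plus strand) encodes CAPRI, a GAP recruited by calcium. It was at 10.3, 10.5 and 19.2 CPM against 8.77, 7.15 and 5.88 CPM, from 87 to 299 reads a library. Replicate 3 of *Nf1fl/fl;DhhCre* stood far above the other libraries. The log2 fold change was -0.84 (SE 0.33, interval -1.62 to -0.06, limma-voom adjusted p = 0.119), and -0.52 without that replicate. DESeq2 called it, with its own adjusted p of 0.0485.

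*Rasal1* (chr5:120648812-120679597, plus strand) was at or near 0 in the libraries. It had 0, 6 and 3 reads in *Nf1fl/fl;DhhCre* and 0, 0 and 3 reads in the double knockout. A count of 0 allows up to 3 reads, which is 0.180 to 0.241 CPM in these libraries, so neither its absence nor a difference between groups could be read at this depth. It was the 1 member that did not pass the filter and was not tested.

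*Rasal2* rose and *Dab2ip* did not pass the test. The groups of each did not overlap, higher in the double knockout, as for 21.8% of all genes. *Rasal2* (chr1:157135182-157412595, minus strand) was at 364, 291 and 307 CPM in *Nf1fl/fl;DhhCre* and at 500, 504 and 576 CPM in the double knockout, with 4793 to 8724 reads a library. The gap between the groups was wider than the range within either. It rose 1.65-fold, from 321 ± 38.4 to 526 ± 43.0 CPM (SD, n = 3 each), a log2 fold change of 0.72 (SE 0.13, interval 0.42 to 1.02, limma-voom adjusted p = 0.0146). The call held whichever of the 6 libraries was left out, from 0.66 without double knockout replicate 3 to 0.84 without *Nf1fl/fl;DhhCre* replicate 1, with a limma-voom adjusted p of 0.0165 to 0.0430. It also held without both libraries high in muscle markers (0.70, limma-voom adjusted p = 0.0391). Sensory neuron and myelinating SC markers rose in the same libraries, and their part in the *Rasal2* result was not tested. Its exons share 244 bases with an antisense pseudogene, 1.78% of their length.

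*Dab2ip* (chr2:35558266-35730994, plus strand) encodes a scaffold with Ras GAP activity that also acts in TNF signaling. It was at 49.5, 59.5 and 52.7 CPM against 67.7, 68.9 and 83.0 CPM. The groups were separate, with *Nf1fl/fl;DhhCre* replicate 2 the nearest to the other group. The log2 fold change was 0.44 (SE 0.15, interval 0.10 to 0.78, limma-voom adjusted p = 0.0744). It passed without *Nf1fl/fl;DhhCre* replicate 2 (0.56, limma-voom adjusted p = 0.0475) with sample quality weights (0.46, limma-voom adjusted p = 0.0417) and with DESeq2 (0.43, with its own adjusted p of 0.0441).

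**Figure D2:**
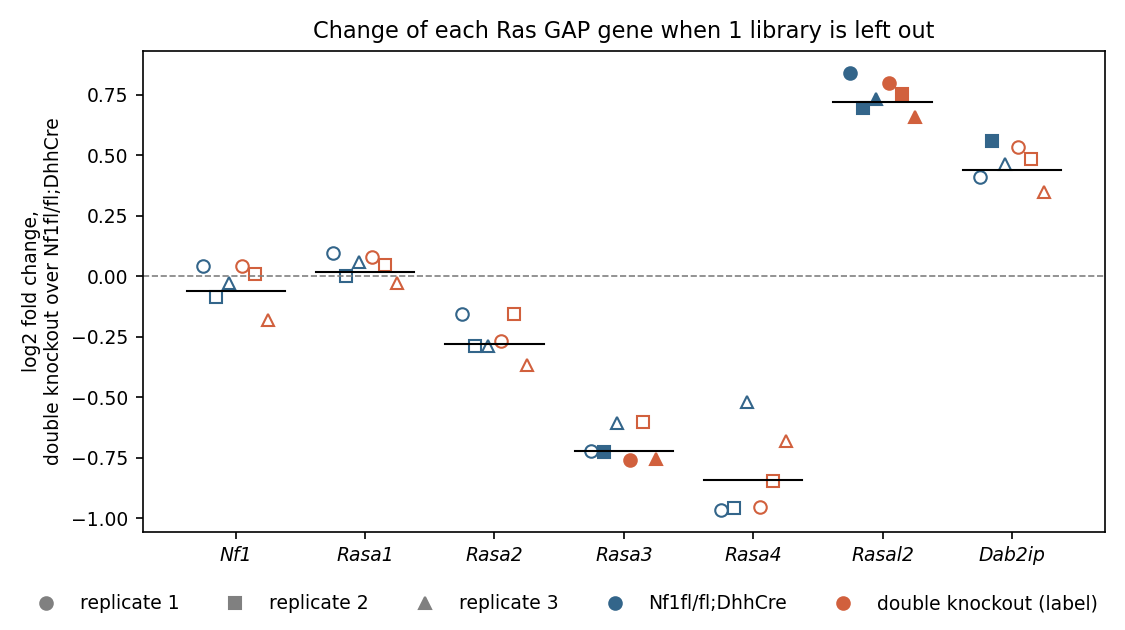
Log2 fold change of each tested Ras GAP gene, double knockout over *Nf1fl/fl;DhhCre* (y axis), when 1 of the 6 libraries is left out. Symbols and colors name the library left out, filled symbols mark a limma-voom adjusted p below 0.05, and the black line is the value with all libraries. *Rasal2* stays between 0.66 and 0.84 and is called each time, *Rasa3* stays between -0.76 and -0.60 and is called in 3 of 6, and *Nf1* crosses 0.

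Ratios of reads within a library do not depend on how libraries are scaled, and the pairs below were chosen after the values were seen. There were 1.09, 1.06 and 1.03 reads of *Rasal2* for each read of *Nf1* in *Nf1fl/fl;DhhCre*, and 1.88, 1.91 and 1.69 in the double knockout. The ratios within a group lay close together although *Nf1* itself varied. For *Dab2ip* the ratios were 0.148, 0.218 and 0.177 against 0.254, 0.262 and 0.243. For *Rasa3* they were 0.237, 0.282 and 0.308 against 0.210, 0.160 and 0.154. Both pairs were also separate between the groups, in opposite directions. The ratios of *Rasa2* (0.345, 0.343 and 0.316 against 0.325, 0.264 and 0.273) and *Rasa4* (0.031, 0.038 and 0.064 against 0.033, 0.027 and 0.017) overlapped, although their CPM did not. *Rasa1* stayed at 0.341 to 0.359 reads for each *Nf1* read in *Nf1fl/fl;DhhCre* and at 0.335 to 0.394 in the double knockout, which overlap. The ratio of *Rasal2* to *Rasa3* reads was 4.60, 3.77 and 3.35 against 8.92, 11.9 and 11.0.

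**Figure D3:**
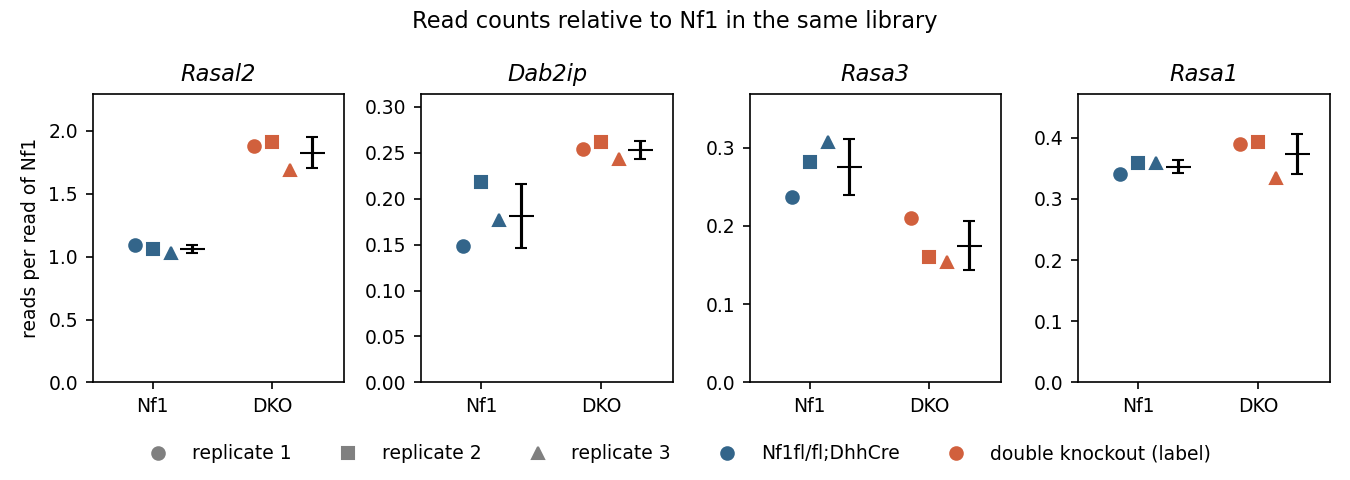
Reads of *Rasal2*, *Dab2ip*, *Rasa3* and *Rasa1* for each read of *Nf1* in the same library (y axis, from 0), for the 3 *Nf1fl/fl;DhhCre* (blue, Nf1) and 3 double knockout (orange, DKO) libraries, with mean and SD. *Rasal2* lies at 1.03 to 1.09 against 1.69 to 1.91, and the *Rasa1* groups overlap.

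Levels were compared between genes per kilobase (kb) of exon, since a longer gene gathers more reads. In *Nf1fl/fl;DhhCre* the order of the levels in CPM per kb was *Rasal2* (23.3 ± 2.80), *Nf1* (19.1 ± 1.94), *Rasa3* (16.2 ± 1.57), *Rasa1* (14.5 ± 1.10), *Dab2ip* (6.44 ± 0.611), *Rasa2* (6.37 ± 0.780), *Rasa4* (1.78 ± 0.676) and *Rasal1* (0.0518 ± 0.0506, SD, n = 3 each). The neighbors *Nf1* and *Rasa3*, *Rasa3* and *Rasa1*, and *Dab2ip* and *Rasa2* overlapped between libraries. In the double knockout it was *Rasal2* (38.3 ± 3.13), *Nf1* (18.3 ± 2.81), *Rasa1* (14.7 ± 0.845), *Rasa3* (9.86 ± 1.41), *Dab2ip* (8.75 ± 1.02), *Rasa2* (5.24 ± 0.770), *Rasa4* (0.971 ± 0.194) and *Rasal1* (0.0187 ± 0.0323). There *Rasa3* and *Dab2ip* overlapped.

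The summed level of the 8 genes per kb of exon was 93.3, 81.4 and 88.7 CPM per kb in *Nf1fl/fl;DhhCre* and 93.1, 89.3 and 106 CPM per kb in the double knockout. These sums overlapped, whereas the makeup within them differed. The shares of a library are tied together, so a larger share of *Rasal2* makes the others smaller. The level of *Nf1* itself overlapped between the groups. *Rasal2* held 26.5% ± 1.66 of the sum in *Nf1fl/fl;DhhCre* and 39.9% ± 1.05 in the double knockout. *Rasa3* held 18.5% ± 1.83 and 10.3% ± 1.36, and *Nf1* 21.7% ± 0.822 and 19.0% ± 1.19 (SD, n = 3 each). *Rasal2* was thus the most abundant Ras GAP transcript of the 8 in every library by this length, and also by the longest transcript or the coding length. The order below it did depend on the length. In *Nf1fl/fl;DhhCre* the mean of *Rasa3* was above that of *Rasa1* per kb of exon but below it by the longest transcript or coding length. By coding length *Rasa2* came before *Nf1* in that group, with 16.1% against 14.4% of the sum. In the double knockout the mean share of *Nf1* by coding length was 12.1%, below that of *Rasa1* at 12.3%.

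**Figure D4:**
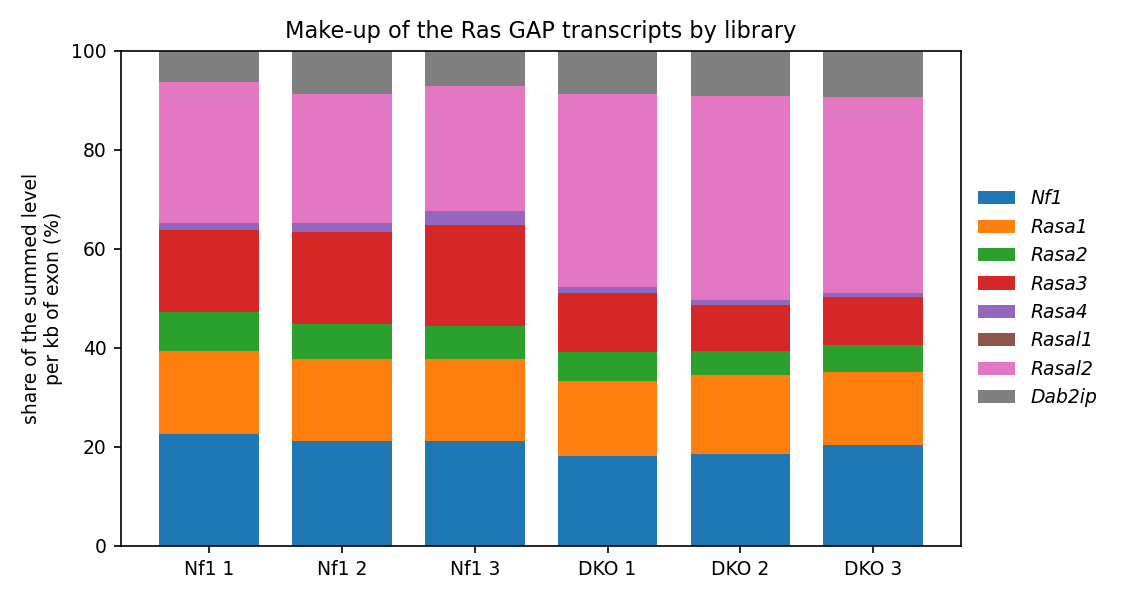
Share of each Ras GAP gene in the summed level of the 8 per kb of exon (y axis, percent) in each library (Nf1, *Nf1fl/fl;DhhCre*; DKO, double knockout). The *Rasal2* segment fills 25.2 to 28.4% of the bar in *Nf1fl/fl;DhhCre* and 39.1 to 41.1% in the double knockout, and the *Rasa3* segment 16.6 to 20.3% and 9.27 to 11.8%.

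Because the design targets *Runx1* and *Runx3*, the promoters were read for the letters of the RUNX core site, TGTGGT or ACCACA on the opposite strand, and the variant TGCGGT or ACCGCA. The windows of 300 bases, 250 before to 50 after a start site, came from RefSeq (GRCm38.p6), with 10 windows for 7 of the members. TGTGGT or its reverse was in 2 of the 10 windows and in 16.8% of all 32851 windows, and the variant was in 1 of the 10 and in 6.45% of all. The matches are shown on the gene's strand with the letters searched in capitals.
*Dab2ip*, chr2:35691949-35691974, plus strand: tcctgcacccACCACAggccctggaa
*Rasa1*, chr13:85289631-85289656, minus strand: ggacggccgcACCACAcgtcccgcac
*Rasa3*, chr8:13677559-13677584, minus strand: cagagcgcggACCGCAgcgcgcgggg
The *Dab2ip* match began at position -35 from a start site inside the gene, that of *Rasa1* at -160 and that of *Rasa3* at 13. These are matches of letters, in 1 gene that fell, 1 whose groups overlapped and 1 that did not pass the test. The windows of *Nf1*, *Rasa2*, *Rasa4* and *Rasal2* held neither. Sequence outside the windows was not searched, so sites farther from a start site would be missed.

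The rest of the Ras pathway was described by lists of genes grouped by role, 33 of 34 of which were tested. Of the 33, 7 rose and 3 fell at adjusted p below 0.05, 4 of them as DEGs, beside 19.3% and 13.4% of all genes. Their median log2 fold change was 0.17, against 0.02 over all genes. The plot of log2 fold changes sets 9 of those that passed beside the Ras GAP genes.

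**Figure D5:**
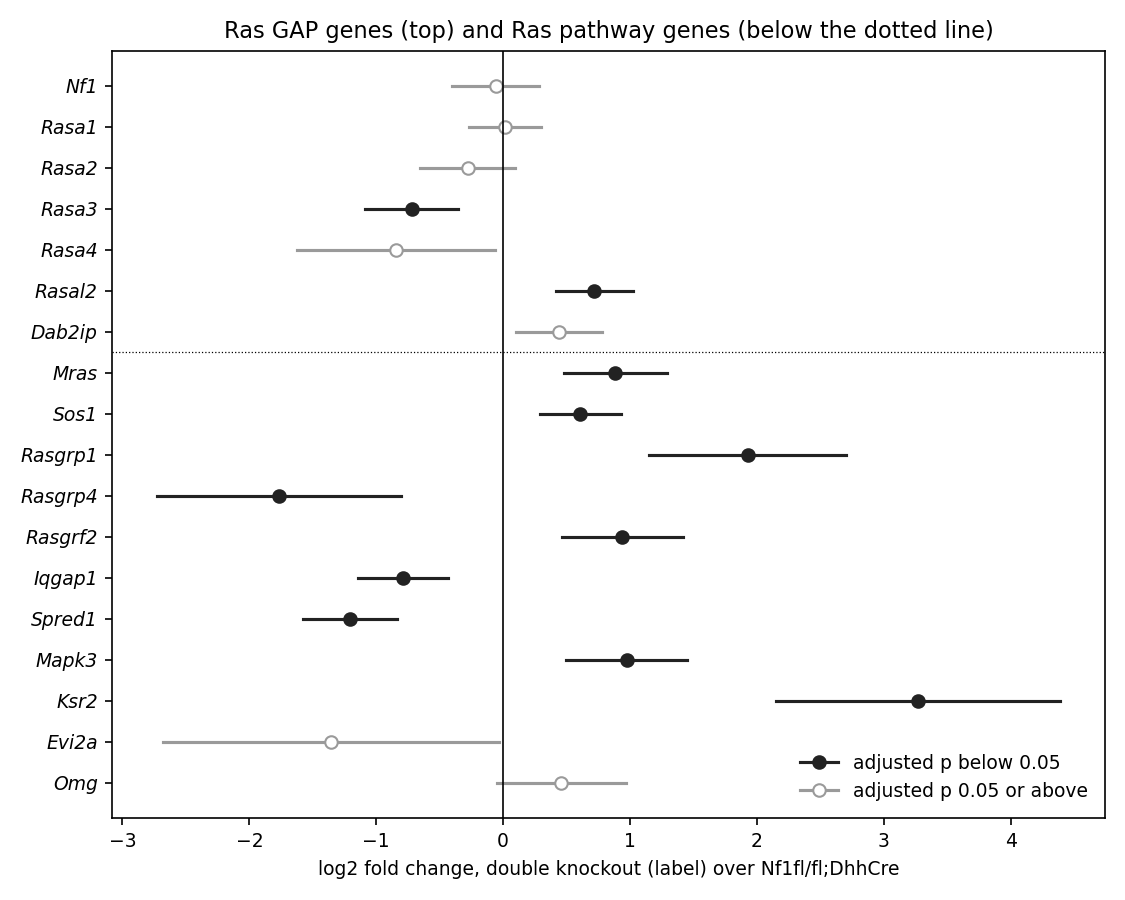
Log2 fold change (x axis), double knockout over *Nf1fl/fl;DhhCre*, with 95% confidence interval, of the 7 tested Ras GAP genes (above the dotted line) and of 9 pathway genes that passed adjusted p below 0.05, with *Evi2a* and *Omg* from an intron of *Nf1* (below it). Filled symbols mark a limma-voom adjusted p below 0.05. *Rasal2* at 0.72 and *Rasa3* at -0.72 are the filled Ras GAP genes, and *Ksr2* at 3.27 lies farthest from 0.

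Of the Ras proteins, the substrates of the GAPs, *Mras*, *Nras* and *Hras* are described. *Mras* was at 88.3, 102 and 75.8 CPM against 163, 137 and 191 CPM. The log2 fold difference was 0.88 (SE 0.17, limma-voom adjusted p = 0.0177). It rose, with groups that did not overlap. The call was lost without *Nf1fl/fl;DhhCre* replicate 1, at a limma-voom adjusted p of 0.0589 and a log2 fold change of 0.91. *Nras* was at 230 to 260 CPM against 198 to 214 CPM and did not pass (-0.27, limma-voom adjusted p = 0.129). *Hras* was at 7.46 ± 2.30 CPM against 16.1 ± 6.02 CPM (SD, n = 3 each; 1.09, limma-voom adjusted p = 0.0938).

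Of the 8 exchange factors, which oppose the GAPs, 3 rose, 1 fell and 4 did not pass, where 11.1% of all genes rose and 8.22% fell. Their median log2 fold change was 0.35, against 0.02 over all genes. *Sos1*, which couples growth factor receptors to Ras, was at 130, 139 and 141 CPM against 193, 189 and 245 CPM (0.61, SE 0.14, limma-voom adjusted p = 0.0257). *Rasgrp1*, an exchange factor switched on by diacylglycerol, was at 41.7, 56.7 and 31.9 CPM against 144, 116 and 248 CPM. It was one of the DEGs among these factors, with a log2 fold change of 1.93 (SE 0.33, limma-voom adjusted p = 0.0135). *Rasgrf2*, an exchange factor responsive to calcium, was at 10.2, 9.17 and 13.7 CPM against 21.0, 19.2 and 22.2 CPM (0.94, SE 0.20, limma-voom adjusted p = 0.0230). The other DEG was *Rasgrp4*, known from mast cells, at 18.2, 11.9 and 17.9 CPM against 5.74, 2.30 and 6.60 CPM (-1.77, SE 0.41, limma-voom adjusted p = 0.0273). The calls of *Sos1*, *Rasgrp1*, *Rasgrf2* and *Rasgrp4* were lost without *Nf1fl/fl;DhhCre* replicate 1, at limma-voom adjusted p of 0.0728, 0.0548, 0.0774 and 0.0831. Their log2 fold changes there were 0.60, 1.94, 0.93 and -1.62. Without *Nf1fl/fl;DhhCre* replicate 3 the calls of *Sos1* (0.67, limma-voom adjusted p = 0.0513) and *Rasgrp4* (-1.62, limma-voom adjusted p = 0.0711) were lost. Without double knockout replicate 1 the call of *Rasgrp4* was lost (-1.86, limma-voom adjusted p = 0.0539). Without replicate 2 of that group the calls of *Rasgrp4* (-1.325, limma-voom adjusted p = 0.0641) and *Rasgrf2* (0.999, limma-voom adjusted p = 0.0540) were lost. Without its replicate 3 the call of *Rasgrf2* was lost (0.89, limma-voom adjusted p = 0.0563). Sensory neuron markers rose where *Mras*, *Sos1*, *Rasgrp1* and *Rasgrf2* did, and their part in those results was not tested. The exons of *Rasgrp4* overlap antisense genes over 18.2% of their length. None of the 4 mast cell markers passed the test, with log2 fold changes of 0.67 for *Kit*, the most abundant of them, and of -0.78, -1.64 and -0.61 for *Cpa3*, *Cma1* and *Mcpt4*. Of 8 macrophage markers 7 fell in the same libraries, and the part of either cell type in the *Rasgrp4* result was not tested.

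Of 5 other genes with a Ras GAP domain, 1 fell and 4 did not pass, where 8.22% of all genes fell. *Iqgap1* encodes a scaffold whose GAP-related domain has no GAP activity. It was at 335, 258 and 341 CPM against 201, 168 and 169 CPM (-0.79, SE 0.15, limma-voom adjusted p = 0.0171). The call was lost without *Nf1fl/fl;DhhCre* replicate 1 or 3 or double knockout replicate 2, at limma-voom adjusted p of 0.0743, 0.0609 and 0.0557. The log2 fold changes of *Iqgap1* there were -0.71, -0.68 and -0.74. *Rasal3*, a Ras GAP of immune cells, was at 6.37 to 23.8 CPM against 2.47 to 3.96 CPM and did not pass (-2.12, SE 0.69, limma-voom adjusted p = 0.0703). Its groups did not overlap. Macrophage markers were lower in those libraries, and their part in these values was not tested.

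The Spred proteins bring neurofibromin to the membrane. Of the 3 genes, *Spred1*, which is mutated in Legius syndrome, fell and the other 2 did not pass, where 8.22% of all genes fell. *Spred1* was at 355, 270 and 329 CPM in *Nf1fl/fl;DhhCre* and at 146, 116 and 151 CPM in the double knockout. No double knockout value came near the other group, and *Spred1* fell 2.30-fold (log2 fold change -1.20, SE 0.16, limma-voom adjusted p = 0.00911). The call held in each of the 6 fits without 1 library, from -1.27 to -1.09. The levels of *Nf1*, whose product Spred1 binds, overlapped between the same libraries. *Spred2* was at 52.0 to 69.9 CPM against 50.6 to 63.4 CPM, and *Spred3* at 19.6 to 26.0 CPM against 13.5 to 23.5 CPM. Fibroblast and macrophage markers fell in the same libraries, and their part in the *Spred1* result was not tested.

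Of 9 kinases and scaffolds downstream of Ras, 2 rose and 7 did not pass, which is near the 19.3% of all genes that passed. Their median log2 fold change was 0.33, against 0.02 over all genes. *Mapk3*, which encodes ERK1, was at 144, 141 and 147 CPM against 232, 248 and 389 CPM (0.97, SE 0.20, limma-voom adjusted p = 0.0209). Its spread in the double knockout came from replicate 3, and the call was lost without *Nf1fl/fl;DhhCre* replicate 1 or 3, at limma-voom adjusted p of 0.0641 and 0.0502. *Ksr2*, a scaffold for the kinases downstream of Ras, was at 0.971, 2.14 and 2.18 CPM against 14.7, 12.9 and 22.8 CPM. It was a DEG, 9.64-fold higher (log2 fold change 3.27, SE 0.48, limma-voom adjusted p = 0.0104), and was called in each of the 6 fits without 1 library. The sensory neuron markers rose in the same libraries and, like *Mapk3*, were highest in double knockout replicate 3; their part in these results was not tested.

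*Evi2a*, *Evi2b* and *Omg* lie within *Nf1* on the opposite strand, and neither of the 2 that were tested passed. *Omg*, which encodes a myelin glycoprotein of oligodendrocytes and neurons, was at 28.4, 20.7 and 32.97 CPM against 33.2, 34.0 and 43.5 CPM (0.46, SE 0.22, limma-voom adjusted p = 0.176). *Evi2a* was at 23.7, 9.29 and 35.0 CPM against 7.17, 6.66 and 8.91 CPM (-1.36, SE 0.56, limma-voom adjusted p = 0.134). Its groups were barely separate, and *Nf1fl/fl;DhhCre* replicate 2 was the value near the double knockout. Without that replicate it passed (-1.88, limma-voom adjusted p = 0.0106), as it did with all libraries in edgeR's quasi-likelihood test and in DESeq2 (own adjusted p of 0.0497 and 0.00394). The exons of *Evi2a* and *Evi2b* share 19.2% and 98.5% of their length with *Evi2*, so their reads are uncertain, and *Evi2b* had 1 to 7 reads a library. The log2 fold changes of *Omg* and *Evi2a*, which lie inside *Nf1*, were larger in size than that of *Nf1* itself, at -0.06.

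Among 10221 genes whose mean log2 CPM was 3 or more, those with the profile nearest to *Nf1* over the 6 libraries were *Wdr35*, *Zfp935* and *Prdm4*, at Euclidean distances of 0.078, 0.095 and 0.119, where the median gene was at 0.780. For *Rasal2*, the member with the smallest p, they were *Disp1*, *Srp9* and *Serinc1*, at 0.113, 0.130 and 0.166, with a median of 1.16. Within the 7 tested Ras GAP genes the nearest pairs were *Nf1* and *Rasa1* at 0.216 and *Nf1* and *Rasa2* at 0.370. Next came *Rasa1* and *Rasa2* at 0.462, and then *Rasal2* and *Dab2ip* at 0.544. These distances describe 6 libraries that differ in genotype, tissue label and cell makeup.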

How the data were processed

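RNA from DRG/tumors of 6 mice was amplified, sequenced, aligned to mm10 with TopHat and counted with featureCounts, per the submitters' processing notes and the study's methods. The authors deposited raw counts per gene, 1 file a sample, not normalized. The annotation used, the strand setting and the handling of multi-mapping reads are not given in the sources used here. Groups came from the genotype labels. Replicate numbers were given in accession order and pair no mice.

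edgeR 4.0.16 in R 4.3.3 filtered the genes (filterByExpr, a count of at least 10 and a total of at least 15) and gave TMM factors, which ran from 0.950 to 1.04. Genotype was then fitted with voom in limma 3.58.1. P-values were adjusted over all 15652 genes by the Benjamini-Hochberg method. A gene was called at adjusted p below 0.05 and was a DEG if it also changed by more than 2-fold. No set test was run. The fit was tested on simulated data. Library totals set the counting precision: 3 reads are 0.180 to 0.241 CPM, a floor that covers counting error only. Within groups, libraries differed beyond sampling noise.

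All 8 members were named. Of the pathway lists, the genes at adjusted p below 0.05 were named or, where none passed, those with the highest level; a few others were added after their values were seen (*Nras*, *Hras*, *Rasal3*, *Spred2* and *Spred3*). Some genes that meet the rule or belong to the lists are counted but not reported here by name. The members and lists were chosen with earlier results of these data known. Positions and exon lengths came from GENCODE M21, and promoters from RefSeq. Log2 values for profiles used a prior count of 0.5. The macrophage marker Adgre1 was found under its synonym *Emr1*. The alternatives changed the test (DESeq2 1.42.0, edgeR's quasi-likelihood test, quality weights for samples, unadjusted p), the scaling (DESeq2's size factors, totals alone) or the filter (CPM above 1 in 3 libraries, any count above 0), or used other gene lengths or a prior count of 2, or left out each library. Leaving out both libraries high in muscle markers was chosen after seeing the data. Python 3.11.15 and matplotlib 3.10.9 drew the figures.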

Additional observations from a re-analysis of the deposited data

How the results depend on the processing

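The number of all genes at adjusted p below 0.05 (limma-voom, 3017) was 4574 with DESeq2 and 5513 at unadjusted p, and ran from 383 to 3006 when 1 library was left out, lowest without *Nf1fl/fl;DhhCre* replicate 1 and next 1192 without double knockout replicate 2 and 1203 without *Nf1fl/fl;DhhCre* replicate 3. The number of DEGs (2096) ran from 362 to 2285 when 1 library was left out. Of the Ras GAP genes, DESeq2 called 4 (*Rasa3*, *Rasa4*, *Rasal2* and *Dab2ip*), unadjusted p passed 4, and 1 to 3 were called when 1 library was left out. Without replicate 2 of both groups 1 was called, *Rasal2*, and *Rasa3* was at -0.64 (adjusted p = 0.0707, limma-voom with Benjamini-Hochberg adjustment). The pathway genes called (10) ran from 2 to 12 when 1 library was left out, with 2 without *Nf1fl/fl;DhhCre* replicate 1. The cause of these shifts was not tested.

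Near 0, the log2 fold change of *Nf1* ranged from -0.18 to 0.043 and that of *Rasa1* from -0.029 to 0.094 when 1 library was left out. *Rasa1* was at -0.060 with library size only, -0.048 with sample quality weights and -0.00091 without replicate 2 of both groups. *Nf1* relative to the general SC genes differed by -0.16 and ranged from -0.28 to -0.0043 when 1 library was left out. It was 0.071 without *S100b*, an alternative chosen after seeing the data. Library size only moved the median over all genes from 0.02 to -0.06 and the share of calls that were upward from 57.3% to 50.7%. *Rasal2* was called under each of the 7 other settings of test, scaling or filter (0.61 to 0.72), as was *Rasa3* (-0.80 to -0.71). No Ras GAP gene was a DEG under any setting. The number of reads limits what can be said of *Rasal1*. No paired analysis was possible because replicate numbers were given in accession order and pair no mice.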
